A study of Mus musculus with 12 samples.

Results

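The Gimap genes encode the GTPases of immunity-associated proteins, a family of small GTP-binding proteins found mainly in lymphocytes. Of the 23361 gene symbols measured, the 8 named Gimap1, Gimap3, Gimap4, Gimap5, Gimap6, Gimap7, Gimap8 and Gimap9 are described here in regulatory T cells (Tregs), a CD4 lineage that depends on Foxp3 and keeps other lymphocytes in check. The family was chosen by the genotype comparison, since Gimap4 had one of the smallest unadjusted p-values between genotypes (0.00594 averaged over both tissues, limma adjusted p = 0.999). The genotype values of the 8 genes are therefore a description with no test, while comparisons between tissues did not enter that choice.

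Each Gimap protein carries a guanine nucleotide-binding domain of the AIG1 type, named after a plant gene of the response to bacteria. Several members sit on intracellular membranes and are known for keeping resting lymphocytes alive. Loss of Gimap5 removes most peripheral T cells in the BB rat, a model of spontaneous autoimmune diabetes, and in the mouse it causes lymphopenia and colitis. Some members bind proteins of the BCL-2 family, which set the threshold of apoptosis, and Gimap6 binds Gabarapl2 of the autophagy machinery.

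The 12 libraries came from mouse Tregs in a model of autoimmune diabetes. Lag3-deficient islet Tregs, Wt islet Tregs, Lag3-deficient Tregs from non-draining lymph nodes (NDL) and Wt NDL Tregs had 3 libraries each. Lag3 encodes a surface receptor that recognises MHC class II and dampens T cell responses, and the study asked whether it limits Treg function. The labels give cytoplasmic RNA, but neither strain, age, sex, type of Lag3 allele nor sort markers, and nothing says that the replicates were separate animals, so p-values measure the spread between these libraries, which may be technical. Libraries are called 1a, 2 and 1b, because the column numbers of each group run 1, 2 and again 1.

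The deposited totals were 15232498 to 15370098 rescaled counts, so the depth of most libraries is unknown. In 3 libraries certain whole numbers almost never occurred among low values, in a regular pattern that multiplied counts leave. Of those values 99.57 to 100% followed the pattern. The factor was 2.79 in Lag3-deficient islet library 2 (5.49 M reads before scaling), 1.58 in Wt NDL library 2 and 1.112 in Lag3-deficient NDL library 1b. The shallow Lag3-deficient islet library 2 had 927 tested genes at 0 and scaling factors that depended on the method (1.18 by TMM and 0.786 by RLE). The ribosomal RNA gene Rn45s held 1.26 to 1.68% of the signal in the 1b libraries and 0.149 to 0.571% in the other libraries. The targeted gene Lag3 had 1, 0 and 0 rescaled counts in Lag3-deficient islet libraries, against 40, 48 and 120 in Wt islet libraries. In NDL it had 1, 0 and 3 in Lag3-deficient libraries, against 2, 5 and 6 in Wt libraries, too few to check the label there. The T cell and Treg markers were present in every group, and Foxp3 lay between 224 and 654 CPM in all 12 libraries.

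The 8 genes lie side by side on mouse chromosome 6, at chr6:48647234-48770851 of GRCm38, a span of 123.6 kb. The order from Gimap8 is Gimap9, Gimap4, Gimap6, Gimap7, Gimap1, Gimap5 and Gimap3. Gimap6 and Gimap3 are on the minus strand and the other members on the plus strand. The targeted Lag3 gene is on the same chromosome, 76.1 Mb away, at chr6:124904361-124911705. Inside the cluster the annotation holds Gm28053, a transcript that starts at Gimap7 and runs over Gimap1 into Gimap5 on the same strand, and Gimap1os, antisense to Gimap1. Gm28053 held 10.32% of the 50-base windows of the Gimap1 transcript, 5.51% of those of Gimap5 and 2.62% of those of Gimap7. Reads from those windows fit the member and Gm28053 alike, while the other windows are absent from Gm28053. Gm28053 was not among the gene symbols measured. No source used here gives the strand setting of the counting, so reads of Gimap1 and Gimap1os cannot be told apart where they overlap.

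**Figure D1:**
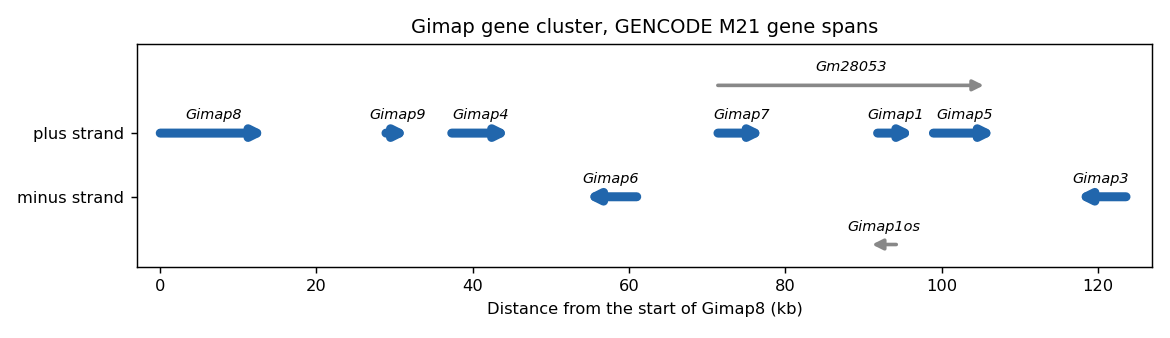
Map of the Gimap cluster, with the distance from the start of Gimap8 (kb) across and the strand up the page; blue arrows are the 8 members and grey arrows overlapping genes. Gm28053 spans Gimap7 and Gimap1 and ends within Gimap5, and the whole cluster spans 123.6 kb.

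Gimap3 and Gimap5 are near-copies, and the sequences below show why their counts could be mixed. Their coding sequences were 88.9% identical over 899 aligned bases, with 140 identical bases in one run. The 73.3% found for Gimap7 and Gimap8 does not rank them next, as their longest identical run was 9 bases. Identity leaves out gaps, and the coding sequence has 2064 bases in Gimap8 against 879 in Gimap7, so gaps can raise it. Of the 50-base windows of the Gimap3 transcript, 9.1% (190 windows) also occurred in the Gimap5 transcript. No source used here says how reads from shared windows were assigned. The first pair of 60-base stretches below has no difference and the second has 16 differences, marked in capitals; all are written 5′ to 3′ in the sense of the gene, from GENCODE M21 transcripts on GRCm38.
Gimap3 (chr6:48765761-48765820, minus strand): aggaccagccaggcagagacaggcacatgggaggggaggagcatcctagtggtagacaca
Gimap5 (chr6:48752684-48752743, plus strand): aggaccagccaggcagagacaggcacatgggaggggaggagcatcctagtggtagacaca
Gimap3 (chr6:48765186-48765245, minus strand): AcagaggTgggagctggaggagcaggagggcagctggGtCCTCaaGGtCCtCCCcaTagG
Gimap5 (chr6:48753259-48753318, plus strand): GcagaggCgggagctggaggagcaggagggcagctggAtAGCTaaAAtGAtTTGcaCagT
A read from the first stretch fits both genes equally, whereas a read from the second can be placed.

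Upstream sequence is shown for members of one cluster that differed in how they varied between libraries. The 250 bases before each RefSeq start (GRCm38.p6) were searched on both strands for 7 motifs, with overlaps allowed. The letters TGTGGT, the core recognised by RUNX factors of lymphocytes, occurred in the windows of Gimap4, Gimap7 and Gimap1, 3 of 8 members, and in 14.0% of 32851 promoter windows of that length. These 3 windows are printed 5′ to 3′ on the plus strand, with the match in capitals in its reverse form ACCACA.
Gimap4 (chr6:48684328-48684577): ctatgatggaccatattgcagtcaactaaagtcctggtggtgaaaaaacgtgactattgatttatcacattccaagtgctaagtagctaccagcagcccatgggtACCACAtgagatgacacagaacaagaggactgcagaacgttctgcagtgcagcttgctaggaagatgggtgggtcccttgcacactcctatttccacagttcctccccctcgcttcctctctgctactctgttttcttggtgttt
Gimap7 (chr6:48718371-48718620): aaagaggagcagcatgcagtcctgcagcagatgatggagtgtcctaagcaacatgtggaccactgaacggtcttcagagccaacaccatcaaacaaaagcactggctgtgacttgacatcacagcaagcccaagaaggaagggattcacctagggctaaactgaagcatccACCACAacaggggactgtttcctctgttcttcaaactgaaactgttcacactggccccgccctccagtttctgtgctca
Gimap1 (chr6:48738797-48739046): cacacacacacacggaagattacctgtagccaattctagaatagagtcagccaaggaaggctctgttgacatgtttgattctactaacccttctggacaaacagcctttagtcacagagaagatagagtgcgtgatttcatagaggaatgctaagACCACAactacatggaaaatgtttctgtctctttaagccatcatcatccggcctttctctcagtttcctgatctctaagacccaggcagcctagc
The ETS letters CCGGAAG, with the variant GCGGAAG and the variant CAGGAAG, were in the windows of Gimap3, Gimap5, Gimap6 and Gimap9 and in 20.2% of all promoter windows. No window held both RUNX and ETS letters. The KLF letters CCACCC were in windows of Gimap3, Gimap4, Gimap5, Gimap8 and Gimap9 (28.1% of all), and the NFAT letters TTTCCA in those of Gimap1, Gimap3, Gimap4, Gimap5 and Gimap8 (18.6%). The E box CAGNTG was in windows of Gimap5, Gimap7, Gimap8 and Gimap9 (44.8%), the FOXO letters GTAAACA in that of Gimap3 alone (3.2%), and the AP-1 letters TGANTCA in none of the 8 (6.7%). A match is a description of letters and says nothing of binding.

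All 8 members were measured in every library, the lowest value being 157 rescaled counts for Gimap5, and all passed the filter on low values. Levels are in CPM after TMM scaling between libraries. In the order 1a, 2 and 1b, the family sum was 2893, 1262 and 2235 CPM for Lag3-deficient islets, against 2599, 2513 and 2634 CPM in Wt islet libraries. It was 1653, 1764 and 1883 CPM in Lag3-deficient NDL libraries and 2048, 1677 and 1546 CPM in Wt NDL libraries. By TMM all Wt islet libraries were above all NDL libraries, and Lag3-deficient islet library 2 was the lowest of the 12. By RLE that library stood at 1902 CPM and Wt NDL library 1b was the lowest at 1527.5 CPM. By totals alone Wt NDL library 1b was also the lowest, and Wt islet library 2 (2230 CPM) was below Lag3-deficient NDL library 1a (2256 CPM).

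Per kb of transcript, Gimap1 and Gimap3 stood highest at 215.02 ± 76.4 and 214.95 ± 65.0 CPM per kb (SD, n = 12 libraries). Gimap4 followed at 180.3 ± 82.5, then Gimap9 at 146 ± 45.7 and Gimap7 at 141 ± 107 CPM per kb. Gimap6 averaged 96.0 ± 44.9, Gimap8 72.6 ± 16.1 and Gimap5 18.8 ± 16.9 CPM per kb. Neighbours in this order mostly changed places between libraries. Gimap1 was above Gimap3 in 6 of 12 libraries, Gimap3 above Gimap4 in 7, and Gimap6 above Gimap8 in 9. Gimap8 was above Gimap5 in 12 of 12. Gimap5, the member best known for T cell survival, had the lowest mean of the family and the lowest level in every library except Wt NDL library 1b, where Gimap7 was lower (14.3 against 15.7 CPM per kb), with the limit that reads shared with Gimap3 may have gone to either gene. By average log2 level, not per kb, 38.6% of tested genes were higher than Gimap5, while the other members stood among the top 2.62 to 11.6%.

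**Figure D2:**
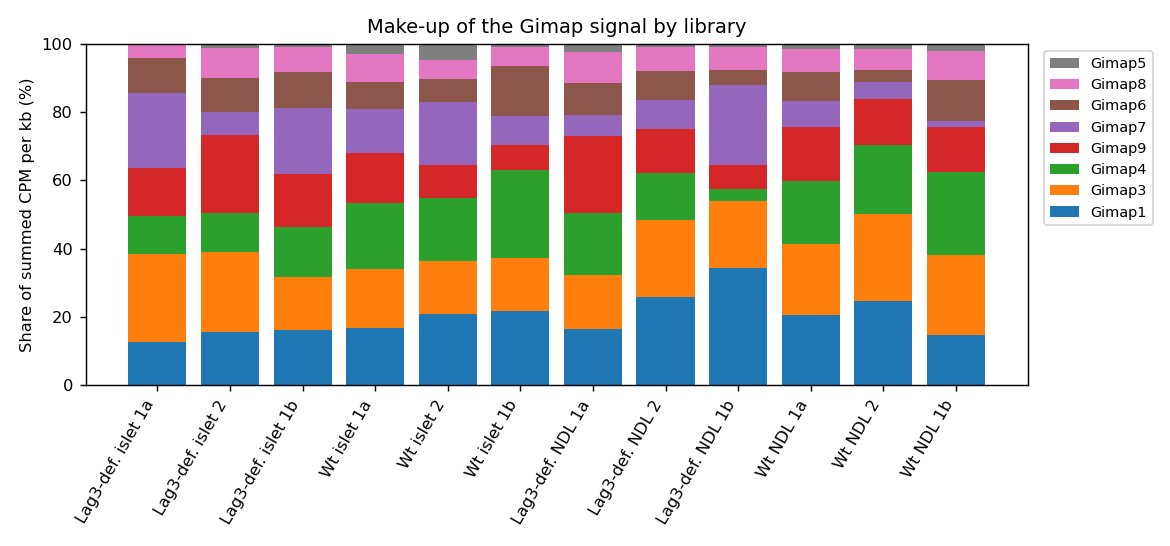
Share of each member in the summed CPM per kb of the family (y axis, %) in each of the 12 libraries (x axis). Gimap4 held 3.58 to 25.9% and Gimap7 1.90 to 23.7%, while Gimap8 held 3.84 to 9.01%.

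The members differed in how steady they were. Gimap8, which carries several GTPase domains in one protein, had a residual SD within groups of 0.27 log2 units, and 2.19% of the 548 genes of like level varied less. Gimap7, whose human protein hydrolyses GTP when it dimerises, had a residual SD of 1.20, and 92.7% of 946 genes of like level varied less. Gimap4 (0.66) and Gimap6 (0.66) were also more variable than most genes of their level (79.7 and 77.3% varied less). Gimap5 had 0.69, with 4.29% of genes of its lower level varying less.

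Gimap8 had 188, 181 and 278 CPM in Lag3-deficient islet libraries and 359, 237 and 233 CPM in Wt islet libraries. In NDL it had 244, 204 and 229 CPM in Lag3-deficient libraries and 227, 173 and 199 CPM in Wt libraries. Its 12 values thus spanned 2.07-fold, the narrowest range of the family. Gimap7 spanned 24.0-fold, from 18.1 CPM in Wt NDL library 1b to 435 CPM in Lag3-deficient islet library 1a.

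**Figure D3:**
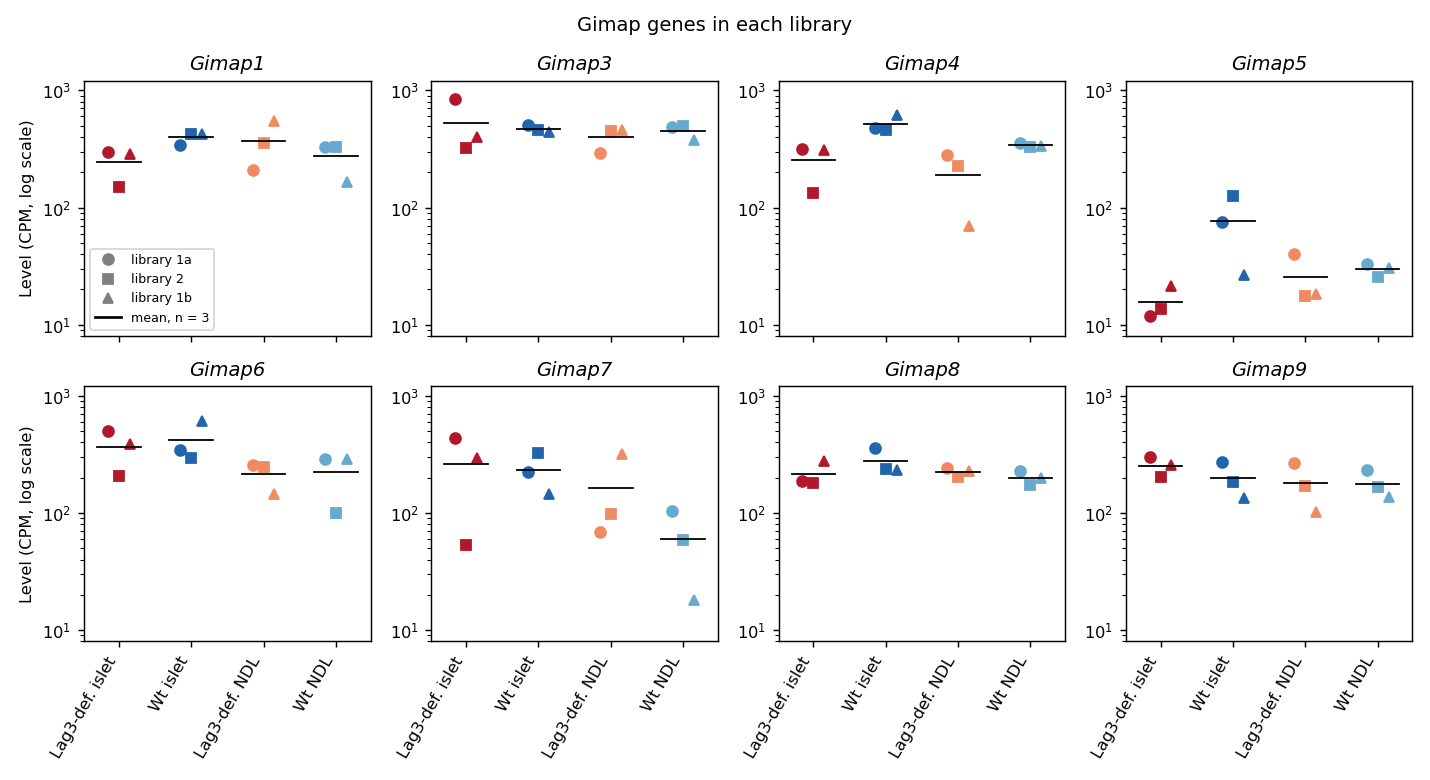
Level of each Gimap gene (y axis, CPM, log scale) in the 4 groups (x axis); each point is 1 library, with its shape giving the column number, and the line is the mean (n = 3). Gimap4 was below its Wt counterpart in all Lag3-deficient libraries, between 69.0 and 316 CPM against 328 to 617 CPM, and Gimap5 was at 11.8 to 21.4 CPM in Lag3-deficient islets against 26.4 to 126 CPM in Wt islets.

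The genotype comparison, which asks what differs in Tregs that lack Lag3, is the one that brought Gimap4 forward. Gimap4, reported in the mouse to hasten the death of T cells, stood at 316, 132 and 310 CPM for Lag3-deficient islets, against 481, 458 and 617 CPM in Wt islet libraries. In NDL it had 279, 225 and 69.0 CPM in Lag3-deficient libraries, against 356, 328 and 332 CPM in Wt libraries. Its mean was 253 ± 104 CPM in Lag3-deficient islets, against 519 ± 86.1 CPM in Wt islets, and 191 ± 109 CPM in Lag3-deficient NDL, against 339 ± 15.1 CPM in Wt NDL (SD, n = 3). All 6 Lag3-deficient values were below all 6 Wt values, with a narrow gap between 316 and 328 CPM. Of 10868 tested genes, 8 (0.0736%) were lower in this way. Separation within each tissue, lower in both, was found for 25 genes (0.23%) including Gimap4, and higher in both for 0.156% and no member. The log2 difference was -1.13 ± 0.50 in islets and -1.05 ± 0.50 in NDL (SE, n = 3 per group). In bulk samples, fewer cells of a type and less RNA per cell cannot be told apart.

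The separation of Gimap4 depended on the scaling in NDL. In islets the libraries did not overlap under TMM, RLE (4.86% of genes) or totals alone (5.64%). In NDL they did not overlap under TMM and RLE (3.68%), but under totals alone (2.59%) Lag3-deficient library 1a had 381 CPM, against 378, 352 and 300 CPM in Wt libraries. The share of genes lower in all 6 Lag3-deficient libraries was 0.046% by RLE, with Gimap4 among them, and 0.0276% by totals alone, without Gimap4. Without Lag3-deficient islet library 2 the islet difference was -0.72. The lowest NDL value came from Lag3-deficient library 1b, and without it the NDL difference was -0.43. Without the 3 libraries scaled up, it was -0.39 in NDL and -0.74 in islets. The part of sequencing depth in these values was not tested.

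**Figure D4:**
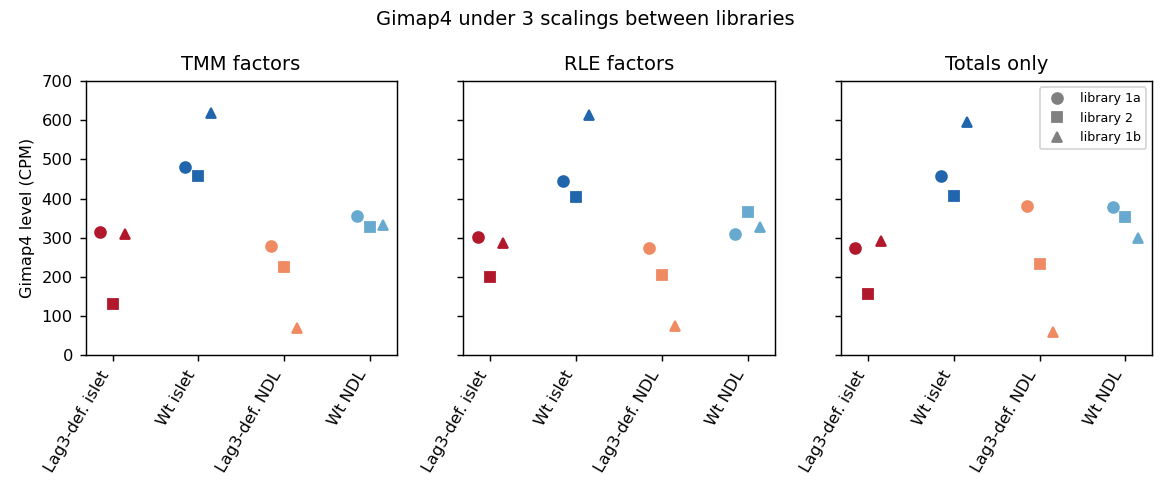
Gimap4 level (y axis, CPM) in the 4 groups (x axis) under TMM factors, RLE factors and totals alone; each point is 1 library. Lag3-deficient NDL library 1a lies at 279 CPM by TMM and 381 CPM by totals alone, where it is above the Wt NDL libraries.

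Gimap5 showed its difference in islets. It had 11.8, 13.5 and 21.4 CPM in Lag3-deficient islet libraries, against 75.7, 126 and 26.4 CPM in Wt islet libraries, and the groups did not overlap. The log2 difference was -2.00 ± 0.86. It was -1.51 without Wt islet library 2 and -2.73 without the 1b libraries. In NDL Gimap5 had 40.4, 17.5 and 18.2 CPM in Lag3-deficient libraries, against 33.2, 25.4 and 30.6 CPM in Wt libraries (-0.32 ± 0.86), and these overlapped. Its near-copy Gimap3 had 850.5, 323 and 402 CPM in Lag3-deficient islets, against 504, 462 and 442 CPM in Wt islets (0.03 ± 0.40). The Gimap5 pattern was not seen in Gimap3, whose level was far higher. Mixing of reads between these genes was not tested.

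Gimap1, which mature lymphocytes of the mouse need to survive, had 295, 149 and 284 CPM in Lag3-deficient islet libraries, against 340, 425 and 427 CPM in Wt islet libraries. The groups did not overlap, and the log2 difference was -0.77 ± 0.45, or -0.45 without Lag3-deficient islet library 2. In NDL the order was not the same, with 210, 355 and 547 CPM in Lag3-deficient libraries and 326, 331 and 164 CPM in Wt libraries (0.40 ± 0.45). Without the 1b libraries the NDL value was -0.22.

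In islets 3 of 8 members were lower in Lag3-deficient libraries with no overlap, where 6.03% of all genes were, and 1 of 8 was so in NDL, where 3.63% were. None was higher with no overlap, against 3.29% of genes in islets and 3.89% in NDL. Since Gimap4 chose the family, nothing is read from these counts. The other members had genotype differences in islets of -0.35 for Gimap8, -0.21 for Gimap7, -0.21 for Gimap6 and 0.41 for Gimap9, each smaller than its SE of 0.41 to 0.77. In NDL Gimap7 differed by 1.41 ± 0.77, but by 0.76 without Lag3-deficient NDL library 1b, 0.72 without Wt NDL library 1b and 0.12 without all 1b libraries. The remaining members differed by -0.20 to 0.18 in NDL. Across all tested genes the islet genotype difference had a median of -0.22 by TMM and -0.031 by RLE. With limma 0 of 10868 genes passed an adjusted p of 0.05 in islets, in NDL or averaged (background 0%), with 624 (5.74%), 296 (2.72%) and 400 (3.68%) genes at an unadjusted p under 0.05. Without Lag3-deficient islet library 1b, 16 genes passed in islets, with no Gimap gene among them.

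The summed T cell and Treg markers were 5309 to 9117 CPM in Lag3-deficient islets, against 6238 to 7378 CPM in Wt islets, and 4011 to 5724 CPM in Lag3-deficient NDL, against 4996 to 5514 CPM in Wt NDL. None of the 8 markers was at 0 throughout a group. B cells, another source of Gimap RNA, gave marker sums of 7.56 to 222 CPM in Lag3-deficient islets, against 55.8 to 253 CPM in Wt islets, and 22.7 to 83.9 CPM in Lag3-deficient NDL, against 29.0 to 106 CPM in Wt NDL. Of the 8 B cell markers Pax5 was at 0 in every library. The CD8 and NK markers summed to 67.6 to 442 CPM in Lag3-deficient islets, against 219 to 406 CPM in Wt islets, and to 54.9 to 114 CPM in Lag3-deficient NDL, against 19.6 to 29.5 CPM in Wt NDL, where the genotypes did not overlap. Of the 8 CD8 and NK markers, 5 were at 0 throughout Lag3-deficient NDL and 1 throughout Wt NDL. The Lag3-deficient NDL sum thus rested on the remaining markers. The part of the T cell, B cell, CD8 and NK markers in the Gimap differences was not tested.

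Islet Tregs were then compared with NDL Tregs, which asks whether cells at the site of disease differ in these genes from cells in an uninvolved node. Gimap7 and Gimap6 had the largest positive estimates in the average over genotypes. No member passed the threshold in any tissue comparison. Averaged over genotypes all 8 estimates were positive, with a median of 0.29, where the median over all genes was -0.04. The positive sign did not hold for Gimap1 under totals alone (-0.10) or, like Gimap3, in the second deposited table (-0.16 for Gimap1 and -0.069 for Gimap3).

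Gimap7 had 435, 53.3 and 292 CPM in Lag3-deficient islet libraries, against 68.9, 98.7 and 321 CPM in Lag3-deficient NDL libraries. In Wt Tregs it had 224, 326 and 145 CPM in islets, against 104, 59.1 and 18.1 CPM in NDL. The Wt tissues did not overlap, while in Lag3-deficient Tregs library 2 of the islets and library 1b of the NDL lay on the far side. The Wt log2 difference was 2.16 ± 0.77 (95% interval 0.55 to 3.77, limma adjusted p = 0.432). The averaged difference was 1.35 ± 0.55 (0.21 to 2.49, unadjusted p = 0.0227, limma adjusted p = 0.333).

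Gimap7 was the member whose call turned on the libraries used. Without the 3 libraries scaled up, an alternative chosen after seeing the data, the averaged difference was 2.12 ± 0.46 (limma adjusted p = 0.036). Those libraries include Lag3-deficient islet library 2 and Lag3-deficient NDL library 1b, the 2 that lay on the far side. Over all alternatives, the adjusted p of this difference ran from 0.036 to 0.673.

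Gimap6 had 499, 206 and 391 CPM in Lag3-deficient islet libraries, against 254, 246 and 144 CPM in Lag3-deficient NDL libraries. In Wt Tregs it had 343, 294 and 610 CPM in islets, against 288.5, 99.8 and 288 CPM in NDL. By TMM islet libraries were higher except for Lag3-deficient islet library 2. By RLE that library (310 CPM) was above all NDL libraries, while Wt islet library 2 (259 CPM) was below Wt NDL library 1b (284 CPM). By totals alone Lag3-deficient NDL library 1a (346 CPM) was above Wt islet library 1a (326 CPM). Lag3-deficient islet library 2 (244 CPM) and Wt islet library 2 (261 CPM) were below that NDL library and Wt NDL library 1a (306 CPM). The averaged log2 difference was 0.84 ± 0.35 (95% interval 0.10 to 1.58, unadjusted p = 0.0282, limma adjusted p = 0.361).

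By TMM and by totals alone Gimap9 was highest in library 1a of every group, while by RLE Lag3-deficient islet library 2 (307 CPM) was above 1a (284 CPM). By TMM it had 298, 204 and 257 CPM in Lag3-deficient islets and 272, 184 and 133 CPM in Wt islets. In NDL it had 266, 168 and 101 CPM in Lag3-deficient libraries and 231, 167 and 136 CPM in Wt libraries. Its averaged tissue difference was 0.35 ± 0.33 (limma adjusted p = 0.742). Gimap3 had 291.5, 450 and 454 CPM in Lag3-deficient NDL libraries and 483, 494 and 378 CPM in Wt NDL libraries, and its averaged tissue difference was 0.18 ± 0.28 (95% interval -0.41 to 0.76, limma adjusted p = 0.858). Among the intervals of the averaged difference, that of Gimap5 was the widest (-1.04 to 1.51).

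In Wt Tregs 5 members, Gimap1, Gimap4, Gimap6, Gimap7 and Gimap8, were higher in islets with no overlap, where 8.37% of all genes were. Under RLE this held for Gimap4, Gimap7 and Gimap8 (7.78% of genes), and under totals alone for Gimap4 and Gimap7 (7.2%). In Lag3-deficient Tregs 0 members were higher and 0 lower without overlap by TMM, where 5.44 and 7.28% of genes were. Gimap6 was higher under RLE and Gimap1 lower under totals alone. The share over all genes was not computed for those settings, so nothing is read from either. In Wt Tregs 0 members were lower (5.59% of genes), and over both genotypes 0 were higher or lower (1.32 and 0.478%). With limma, 0 of 8 members passed averaged over genotypes, where 0.92% of genes did (89 higher and 11 lower). It was 0 of 8 in Wt Tregs, where 0.184% passed, and 0 of 8 in Lag3-deficient Tregs, where 0.12% passed. At an unadjusted p under 0.05, 2 of 8 were found averaged (Gimap6 and Gimap7, background 11.3%), 1 of 8 in Wt (Gimap7, 7.53%) and 0 of 8 in Lag3-deficient Tregs (8.71%).

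Whether the tissue effect differed between genotypes was tested as the Lag3-deficient minus the Wt tissue effect. It was -1.17 ± 0.64 for Gimap1 (95% interval -2.51 to 0.17, unadjusted p = 0.0838), -1.68 ± 1.22 for Gimap5 and -1.62 ± 1.09 for Gimap7 (limma adjusted p = 1 for each). The Gimap7 value was -0.75 without Lag3-deficient islet library 2, -0.97 without Lag3-deficient NDL library 1b, -0.93 without Wt NDL library 1b, -0.80 without all 1b libraries, -0.55 with array weights and -0.29 without the 3 libraries scaled up. Without all 1b libraries it was -0.50 for Gimap1 and -2.65 for Gimap5, and with array weights -0.66 for Gimap1. With limma 0 members and 0 genes passed (background 0%), and at an unadjusted p under 0.05 there were 0 of 8 members and 4.02% of genes. The differences seen in 1 genotype are thus not shown to differ between genotypes.

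**Figure D5:**
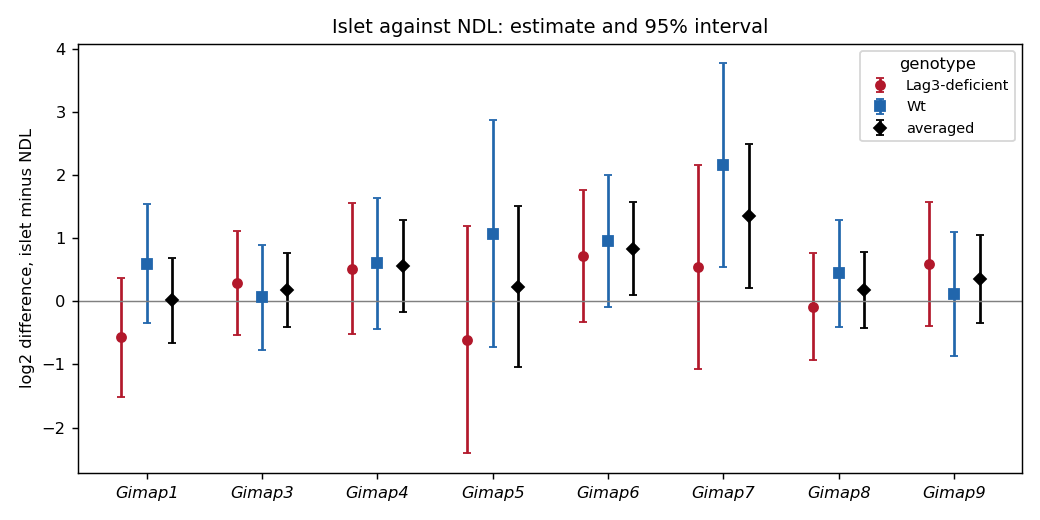
Log2 difference of islet minus NDL (y axis) for each Gimap gene (x axis) in Lag3-deficient Tregs, in Wt Tregs and averaged; points are limma estimates and bars 95% intervals. The averaged interval excludes 0 for Gimap6 (0.10 to 1.58) and Gimap7 (0.21 to 2.49), before adjustment over all genes.

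Marker sums were also compared between tissues. The myeloid, exocrine and endocrine sums did not overlap between tissues, while the other sums did. The T cell and Treg markers summed to 5309 to 9117 CPM in islet libraries and 4011 to 5724 CPM in NDL libraries. Not every marker followed the sum. Foxp3 was at 224 to 483 CPM in islet libraries and 311 to 654 CPM in NDL libraries. For Cd4 the values were 115 to 263 CPM in islet libraries and 172 to 294 CPM in NDL libraries. Myeloid markers summed to 68.1 to 222 CPM in islets and 0.290 to 40.1 CPM in NDL, CD8 and NK markers to 67.6 to 442 CPM in islets and 19.6 to 114 CPM in NDL, and exocrine markers to 33.6 to 2607 CPM in islets and 0 to 4.91 CPM in NDL. B cell markers summed to 7.56 to 253 CPM in islets and 22.7 to 106 CPM in NDL. For endocrine markers the sums were 2.20 to 228 CPM in islets and 0 to 0.545 CPM in NDL. Stromal markers had 0.440 to 141 CPM in islets and 0 to 1.09 CPM in NDL. Endothelial markers summed to 1.69 to 87.4 CPM in islets and 6.81 to 113 CPM in NDL. Among them Pecam1 was at 1.02 to 29.3 CPM in islets and 5.87 to 113 CPM in NDL, Kdr reached 16.3 CPM in Lag3-deficient islet library 1b, and Cdh5 was at most 0.936 CPM in any library. The part of other cells in the tissue differences was not tested.

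The members did not move as a block. Over the 28 pairs, Pearson's r of log2 levels across the 12 libraries had a median of 0.27 and was positive in 25 pairs, a description in which the libraries share 4 groups and their scaling. The pair most alike was Gimap1 and Gimap7 (r = 0.69, and 0.89 after removing group means), followed by Gimap4 and Gimap6 (0.59). The least alike were Gimap1 and Gimap9 (-0.33). Among the 5604 genes whose average log2 level reached 4, the 4 closest to the mean of the family were Jak2 (r = 0.90), Vcp (0.90), Actg1 (0.89) and Rab10 (0.89). The 5 closest to Gimap4 were Herc6 (0.95), Golt1b (0.94), Snx2 (0.93), Aars (0.93) and Usp12 (0.92).

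Genes next to the cluster were mostly silent or low. Of 22 protein-coding genes within 500 kb, 18 were in the table and 14 were tested. The highest, Tra2a, a splicing regulator, had a median of 77.2 CPM. With limma 0 of 14 passed averaged over genotypes, 8 were positive, and their median was 0.24, against -0.04 over all genes. Tmem176b, a membrane protein of dendritic cells and macrophages, averaged 26.0 and 20.8 CPM in Lag3-deficient and Wt islets, against 0.0249 and 0.814 CPM in Lag3-deficient and Wt NDL (2.84 ± 0.96, limma adjusted p = 0.22), and Sspo differed by -0.81 ± 0.47 (limma adjusted p = 0.539).

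Lists of genes from families and pathways, some of whose products are known to act with Gimap proteins, were compared between tissues in the same fit. A gene's place in a list does not mean that its own product has such a link. Of 8 BCL-2 family genes 0 passed and 2 were positive (median -0.65). Bcl2, the survival factor, averaged 60.8 and 56.5 CPM in Lag3-deficient and Wt islets, against 200 and 179 CPM in Lag3-deficient and Wt NDL. Its difference was -1.81 ± 0.43 and just missed the threshold (limma adjusted p = 0.0504). It passed in 8 alternatives, among them the second deposited table (0.0206), and the adjusted p was 0.157 with no low-value filter. Bid, a death agonist, differed by -2.25 ± 0.98 (limma adjusted p = 0.377). Of 13 autophagy genes 0 passed and 7 were positive (median 0.21), the smallest p-values being those of Atg16l1 (0.95 ± 0.79) and Atg7 (1.03 ± 0.87). Of 7 tested genes of the Foxo, Gsk3, Myc and NFAT factors linked to Gimap5 0 passed and 3 were positive (median -0.049), with Nfatc1 at 0.76 ± 0.65 and Myc at 0.43 ± 0.48.

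Of 17 genes of naive and quiescent T cells, the cells in which Gimap proteins are best known, 2 fell in islets and 0 rose, where 0.92% of all genes passed (11 lower and 89 higher), with 4 positive and a median of -0.85. Bach2, a repressor that holds T cells in the resting state, averaged 20.8 and 7.59 CPM in Lag3-deficient and Wt islets, against 109 and 137 CPM in Lag3-deficient and Wt NDL. Its difference was -3.19 ± 0.61 (limma adjusted p = 0.0125, and 0.0567 without Lag3-deficient NDL library 2). Igfbp4, which encodes a binding protein of insulin-like growth factors, averaged 1.94 and 4.99 CPM in Lag3-deficient and Wt islets, against 60.9 and 69.8 CPM in Lag3-deficient and Wt NDL, a difference of -4.48 ± 0.92 (limma adjusted p = 0.0191). That call was lost without a low-value filter (0.0536), without the 3 libraries scaled up (0.0609), without the 1b libraries (0.123) and without Lag3-deficient NDL library 1a (0.0611), Wt NDL library 1a (0.0556) or Wt NDL library 1b (0.0664).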

How the data were processed

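RNA of 12 mouse Treg libraries was analysed from 2 deposited tables. The first deposited table gives, for 23361 genes, a signal of whole-number counts that had been rescaled, and the second deposited table a quantile-like signal used as an alternative. The submitters' processing notes name TopHat2, DESeq2 and mm10 only, with no version and no role. No raw counts were at hand, so no counting intervals are given. Rescaled counts were scaled with TMM factors (trimming 30% of ratios and 5% of levels) and tested as log2(CPM + 1) with limma 3.58.1 in R 4.3.3, in 1 model of 4 groups with 8 residual degrees of freedom before moderation. A fold change on this scale understates changes of low genes. A count model had been planned for raw counts. A gene was tested where 3 or more libraries reached 10 rescaled counts (10868 of 21708 genes above 0), with Benjamini-Hochberg adjustment over all of them and a threshold of 0.05. Fits were tested on simulated data. Levels per kb used 1 GENCODE transcript per gene. Same-numbered libraries did not all deviate together (r from -0.09 to 0.16 over 18 pairs), so the numbers were not taken as pairs. Alternatives were RLE factors, totals alone, other pseudocounts and filters, the second table, array weights, a block on the column number, and leaving out libraries. The members and lists were chosen with earlier results of these data known. The genes named were the 8 members, Lag3, list genes past the threshold or with the 2 smallest p-values of a list between tissues, and the 5 genes most like the family mean and Gimap4, of which 1 is not reported here. Cdh5, Kdr, Pecam1, Pax5, Foxp3, Cd4, Rn45s and Tra2a were named after their values were seen.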

Additional observations from a re-analysis of the deposited data

How the results depend on the processing

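With limma, 0 Gimap members passed in the Wt, Lag3-deficient and difference comparisons under every alternative, and averaged over genotypes in all but 1, where 1 member, Gimap7, passed without the 3 libraries scaled up. The number of genes called averaged over genotypes (100) was 40 with no filter, 172 with array weights, 45 without the 4 columns that repeat the number 1, and 65 to 106 with single libraries left out. In Wt it was 20, with 11 for no filter, 48 for array weights, 8 without those 4 columns and 9 to 25 with single libraries left out. In Lag3-deficient Tregs it was 13, with 26 by RLE, 7 with no filter, 31 in the second deposited table, 36 with array weights, 24 without those 4 columns and 9 to 32 with single libraries left out.

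Same-numbered libraries did not all deviate together, so the column numbers were not taken to pair the libraries, although the 1b libraries share a higher Rn45s level. With a replicate block on the number 1 or 2, 92 genes were called averaged, 18 in Wt and 14 in Lag3-deficient Tregs, and with the repeated number as its own level of the block 90, 11 and 12. No Gimap call changed under either block. The block with its own level for the repeated number and the fit without the 3 libraries scaled up were chosen after seeing the data.

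Some estimates of the tissue difference changed sign, among them values that were not near 0, and the cause was not tested. Averaged, Gimap1 (0.02) was -0.10 by totals alone, -0.16 in the second table and -0.10 without the 4 repeated columns, and -0.17 to 0.18 with single libraries left out. Gimap3 was -0.069 in the second table and -0.026 to 0.28 with single libraries left out, and Gimap5 -0.011 to 0.54. Without the 4 repeated columns Atg16l1 (0.95) was -0.12 and Nfatc1 (0.76) was -0.19. In Wt, Gimap3 was -0.019 by RLE, -0.049 by totals alone, -0.22 in the second table, -0.075 without the 4 repeated columns and -0.059 to 0.13 with single libraries left out, and Gimap9 -0.10 in the second table and -0.15 to 0.32. In Lag3-deficient Tregs, Gimap4 (0.52) was -0.26 without the 4 repeated columns. With single libraries left out it was -0.094 to 0.91, Gimap3 (0.30) -0.12 to 0.52 and Gimap7 (0.54) -0.053 to 1.39, and Gimap8 was 0.064 by RLE. For the difference between genotypes, Gimap4 was 0.15 by RLE and Gimap6 0.28 without the 3 libraries scaled up. With single libraries left out Gimap4 was -0.70 to 0.32, Gimap6 -0.52 to 0.26 and Gimap3 -0.18 to 0.48.

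Rescaling hides sampling noise, so the depth behind each value is known for 3 libraries only.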

Other observations

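Other GTPase families were compared between tissues in the same fit. Of 16 interferon-inducible GTPase genes, which act against intracellular pathogens, 0 passed with limma averaged over genotypes, 11 were positive and the median was 0.40, against -0.04 over all genes. Gbp3 averaged 244 and 115 CPM in Lag3-deficient and Wt islets, against 67.5 and 86.5 CPM in Lag3-deficient and Wt NDL, a log2 difference of 1.08 ± 0.41 (limma adjusted p = 0.291). Gbp6 averaged 178 and 248 CPM in Lag3-deficient and Wt islets, against 133 and 123 CPM in Lag3-deficient and Wt NDL (0.68 ± 0.37, limma adjusted p = 0.506).

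Septins, filament-forming GTPases related in fold to the Gimap proteins, had 7 tested genes of 9, with 0 passing, 4 positive and a median of 0.27. Sept11 averaged 56.8 and 118 CPM in Lag3-deficient and Wt islets, against 29.1 and 20.8 CPM in Lag3-deficient and Wt NDL (1.71 ± 0.62, limma adjusted p = 0.262). Sept2 differed the other way, with 51.2 and 118 CPM in Lag3-deficient and Wt islets, against 107 and 152 CPM in Lag3-deficient and Wt NDL (-1.24 ± 0.56, limma adjusted p = 0.407). None of these differences passed the threshold.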
